A study of Mus musculus with 3 samples.

Results

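The 36 genes described here encode enzymes and transporters of central carbon metabolism, and they were taken by name from the 27998 genes counted in each library. By role they are 2 glucose transporters, 13 enzymes of glycolysis, 2 lactate dehydrogenase subunits, 2 enzymes of glycogen metabolism and 6 enzymes of the pentose phosphate pathway. The others are 2 subunits of pyruvate dehydrogenase and 9 enzymes listed under the tricarboxylic acid (TCA) cycle. *Idh1* and *Mdh1*, counted among the 9, encode cytosolic forms. All 36 had UMIs in every library. Glycolysis splits glucose into pyruvate in the cytosol, and lactate dehydrogenase turns pyruvate into lactate and back. The pentose phosphate pathway branches off after the first phosphorylation of glucose and yields NADPH and ribose phosphate, while pyruvate dehydrogenase and the TCA cycle oxidize carbon in the mitochondria. Mature neutrophils are known for few mitochondria, for living largely on glycolysis and stored glycogen, and for using NADPH in the oxidative burst.

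The data are 3 single-cell libraries of CD133+ bone marrow cells of C57BL/6 mice, sorted by FACS and prepared with the 10x Chromium 3′ kit, each from 3 pooled mice. The young and control libraries are labelled 3 months, and the old library is labelled 27 months while the series' design text gives 18.5 months. That text also calls the cells intestinal, where all other labels give bone marrow. No label names an agent or a genetic change in any group, and none says how the control library differs from the young library. Because each group is 1 library, there is no replicate and no test below, and the mice of a pool cannot be told apart.

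After the filters, 6613 young, 9673 control and 9594 old cells were used, with medians of 10357, 9596 and 12706 UMIs per cell and totals of 67798786, 95126481 and 118706450 UMIs. The series' title calls these cells endothelial-like, but the 6 endothelial markers *Cdh5*, *Pecam1*, *Kdr*, *Tek*, *Emcn* and *Vwf* summed to 1.72 to 3.12 UMIs per 1000000 (CPM), with *Tek* at 0 in the control and old and *Cdh5* at 0 in the old library. All 5 promyelocyte and all 7 maturing neutrophil markers exceeded 10 CPM in every library, and the cells are described here by those genes. The young library stood apart: 7 interferon-stimulated genes summed to 907 CPM there, against 29.9 CPM in the control and 25.3 CPM in the old library, and 765 of its cells carried markers of other blood cells and were set aside, against 107 and 87. What is left of those markers was also highest there, with monocyte markers at 33.7 CPM against 7.52 and 14.1 CPM. Of the cells used, the old and young libraries shared 89 cell barcodes, control and young 93, and old and control 128. For most members the level in the control library, or the difference from it, is therefore given beside the difference from the young library. The part of the young library's state in these results was not tested.

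Levels below are CPM summed over the cells of a library or band. The kit counts 3′ ends of molecules, so that levels were not divided by gene length. Intervals are exact at 95% and cover counting error only. A gene counts as past the limit where 2 levels differ by 1.5 times or more and at least 1 of them is 10 CPM or more. Cells were also placed in 6 bands that use no member. Bands 1 to 4 hold cells with *Mpo*, a promyelocyte gene, at 50 or more, 10 to under 50, 2 to under 10 and under 2 per 10000 UMIs, while *Retnlg* and *Mmp8*, genes of late maturation, stay under 5 in sum. Bands 5 and 6 hold cells with that sum at 5 to under 20 and at 20 or more, and *Mpo* under 10. Bands 5 and 6 took 26.1% and 6.11% of young, 8.70% and 3.44% of control and 38.7% and 16.9% of old cells. By these limits the old library held the largest share of late cells, and 7.23%, 1.28% and 6.56% lay in no band. Ratios with the 6 bands weighted equally are given for that reason. Many cells lay within 20% of the lower limit of band 5, namely 1739 young, 871 control and 2245 old cells. In band 1 *Retnlg* was at 265 CPM in the young, 123 CPM in the control and 292 CPM in the old library. The part of this in the shares of band 5 was not tested.

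Together the 36 genes took 0.857% of UMIs in the young, 0.824% in the control and 1.01% in the old library. The glycolytic enzymes and lactate dehydrogenase gave 0.523%, 0.523% and 0.680% in the same order, and the old library was the high one. The pentose phosphate genes gave 0.232%, 0.201% and 0.221%, and the pyruvate dehydrogenase and TCA genes 0.0794%, 0.0798% and 0.0831%. In every library *Pkm*, which makes pyruvate in the last step of glycolysis, was the highest member, and *Slc2a1* the lowest.

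In the old against the young library, 5 of the 35 members with 10 CPM or more were higher past the limit (*Slc2a3*, *Pfkl*, *Ldha*, *G6pdx* and *Idh3a*) and 2 were lower (*Ldhb* and *Rpia*). Among all 5606 genes at that level, 5.03% were higher and 10.5% lower past the limit. In the control against the young library, both labelled 3 months, only *Idh3a* of the 35 was higher and 0 were lower past the limit, beside 2.26% and 3.86% of all genes. In the old against the control library 3 were higher (*Slc2a3*, *Pkm* and *G6pdx*) and 1 was lower (*Rpia*), beside 5.36% and 8.68% of all genes. The members past the limit against both libraries were *Slc2a3* and *G6pdx*, which were higher, and *Rpia*, which was lower but did not pass once ratios were centred on the median gene. With the bands weighted equally none of the 3 passed against the control, where they were at 0.52, 0.56 and -0.42. The median log2 ratio of old over young was 0.24 for glycolysis, -0.11 for the pentose phosphate pathway and -0.022 for the TCA cycle, beside -0.089 over all genes tested. Of old over control these medians were 0.24, 0.12 and 0.017, beside -0.077. Both comparisons share the old library, and the share of all genes past the limit in both is not given here.

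**Figure D1:**
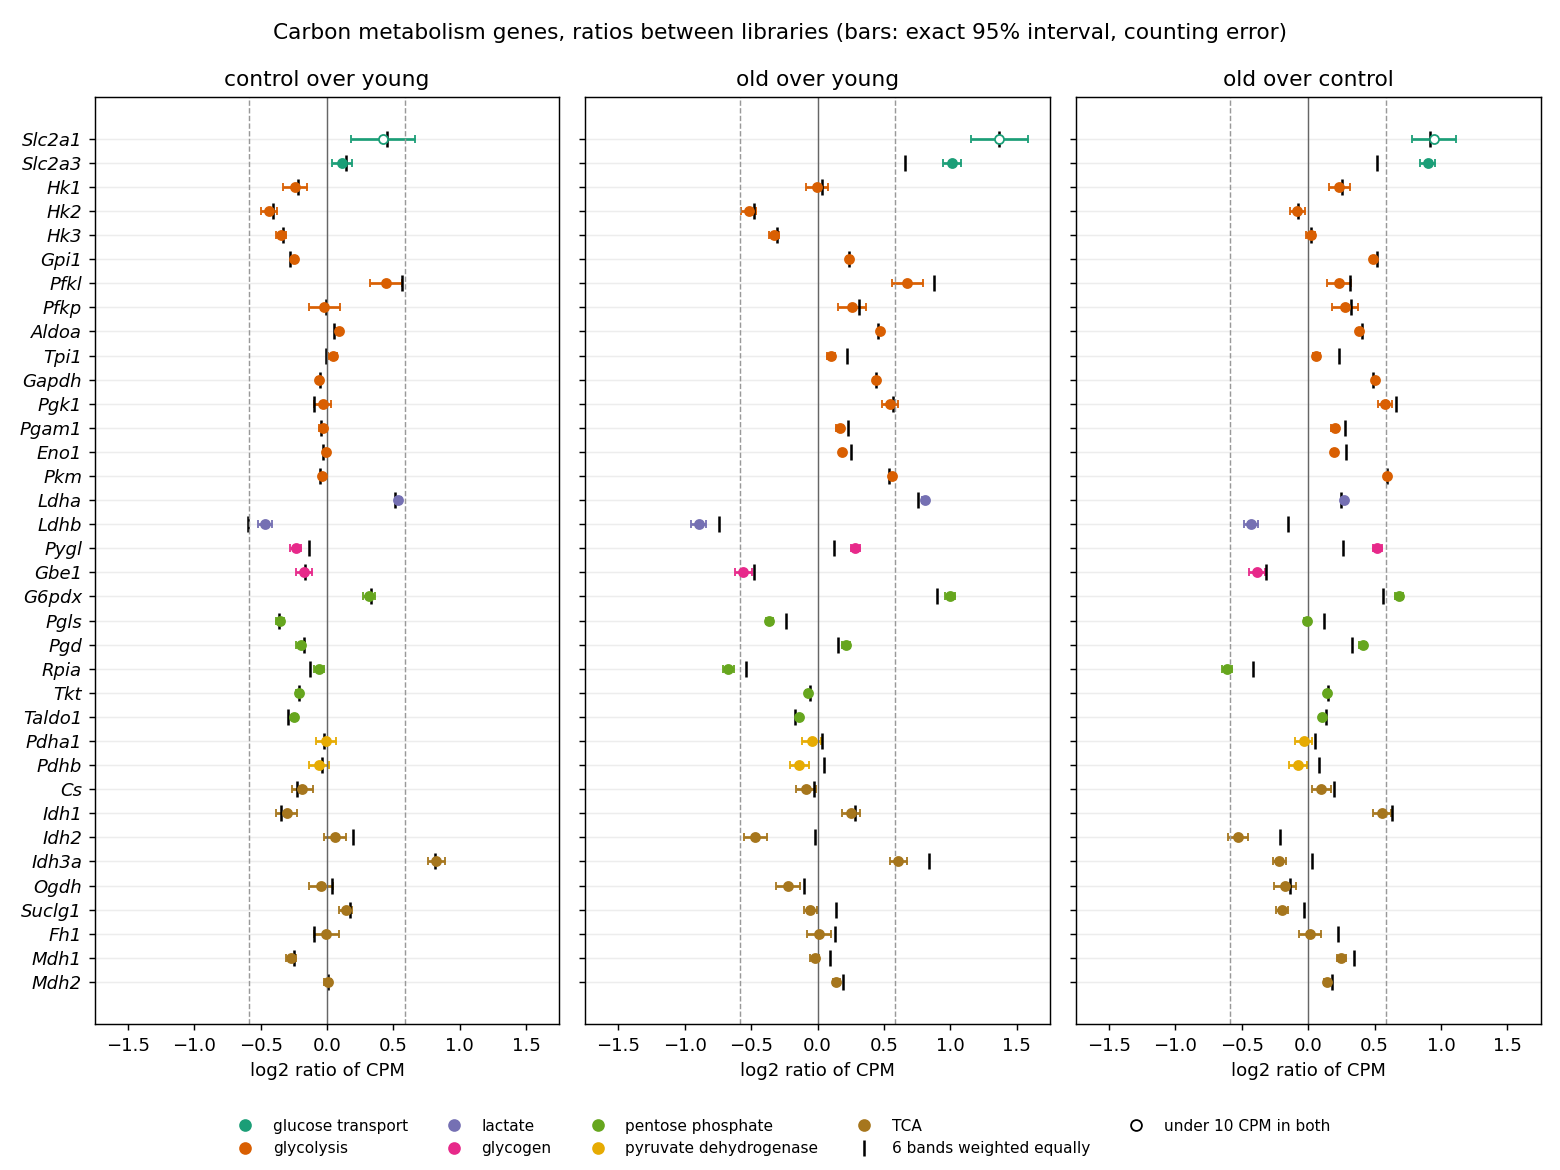
Log2 ratio of CPM between libraries (x axis) for the 36 members (y axis, coloured by role), with exact 95% intervals for counting error, dashed lines at the limit of 1.5 times, and a black tick for the ratio with the 6 bands weighted equally. In the middle panel *Slc2a3* and *G6pdx* lie at 1.01 and 0.9999 and *Ldhb* at -0.90, with the tick of *Slc2a3* at 0.66. In the left panel *Idh3a* lies at 0.82. The directions of these ratios in the panels named were the same under every scaling tried. In the right panel *Idh3a* lies at -0.22, with its tick at 0.026.

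The glucose transporters were both higher in the old library. *Slc2a3* (chr6:122727809-122801640, minus strand), which encodes the high-affinity transporter GLUT3, was at 32.4 CPM in the young, 35.1 CPM in the control and 65.4 CPM in the old library. The old library was high, and the other libraries lay close together below it. The log2 ratio was 1.01 (0.94 to 1.08) against the young and 0.90 (0.84 to 0.96) against the control library, but 0.66 and 0.52 with the bands weighted equally, the second of which is under the limit. *Slc2a3* was highest in band 6, which took a larger share of old cells, and the part of that share in the ratios was not tested. The log2 ratio of *Slc2a3* remained above 0 in each of the 6 bands, at 0.51 to 0.85 against the young library. *Slc2a1*, which encodes GLUT1, was under 10 CPM in all 3 libraries, at 3.26 CPM in the young, 4.36 CPM in the control and 8.42 CPM in the old library, and its log2 ratio of 1.37 (1.16 to 1.59) rested on 221 young UMIs. Counts of *Slc2a3* could include *Gm4482*, which overlaps it on the same strand.

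Glycolysis begins with hexokinase, which traps glucose as its phosphate. *Hk3*, the form most abundant here, was at 156 CPM in the young, 123 CPM in the control and 124 CPM in the old library, and *Hk2* at 68.4 CPM in the young, 50.5 CPM in the control and 47.8 CPM in the old library. The young library was the high one for both, and the log2 ratio of old over control was 0.019 for *Hk3* and -0.081 for *Hk2*. *Hk1* was at 27.2 CPM in the young, 23.1 CPM in the control and 27.2 CPM in the old library. None of the 3 passed the limit between any libraries.

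Phosphofructokinase commits sugar phosphate to glycolysis, and its liver form *Pfkl* (chr10:77986947-78010083, minus strand) was at 12.5 CPM in the young, 17.0 CPM in the control and 19.96 CPM in the old library, with a log2 ratio of 0.68 (0.56 to 0.79) of old over young. The control library lay between the others, 0.44 (0.32 to 0.57) above the young library, so that the old library was 0.23 (0.14 to 0.32) above the control. With the bands weighted equally, old over young was 0.88 and old over control 0.31. The platelet form *Pfkp* was at 15.7 CPM in the young, 15.5 CPM in the control and 18.8 CPM in the old library, and the muscle form *Pfkm*, no member, at 0.501, 0.189 and 0.345 CPM. *Pfkl* gave 43.5% (41.3 to 45.8) of the UMIs of the 3 forms in the young, 52.0% (50.2 to 53.8) in the control and 51.1% (49.6 to 52.5) in the old library.

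A group of later enzymes was higher in the old library than in both others by about the limit or less, and nearly level between control and young. *Pkm* was at 992 CPM in the young, 967 CPM in the control and 1462 CPM in the old library, with log2 ratios of 0.56 (0.55 to 0.57) of old over young, 0.60 (0.59 to 0.61) of old over control and -0.037 (-0.052 to -0.023) of control over young. *Gapdh*, which makes NADH in the middle of the pathway, was at 831 CPM in the young, 795 CPM in the control and 1126 CPM in the old library, and *Aldoa*, the aldolase that splits the hexose, at 719 CPM in the young, 763 CPM in the control and 994 CPM in the old library. *Pgk1*, the first step that returns ATP, was at 47.7 CPM in the young, 46.6 CPM in the control and 69.5 CPM in the old library. For these 4 genes the old library was high and the log2 ratio of control over young ran from -0.063 (*Gapdh*) to 0.087 (*Aldoa*). Smaller ratios of old over young were measured for *Pfkp* (0.26), *Gpi1* (0.24), *Eno1* (0.18), *Pgam1* (0.17) and *Tpi1* (0.10). Of old over control these were 0.28, 0.49, 0.19, 0.20 and 0.062 in the same order. *Gpi1* was not level between control and young, at -0.25. Several of these glycolytic genes have processed copies elsewhere in the mouse genome, and reads shared with a copy make their counts uncertain. By UMIs per cell the ratios were larger, with a median of all genes of old over young of 0.18 and of glycolysis of 0.51.

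Upstream sequence is shown for *Hk2* and *Pgk1*, which lay on opposite sides of 0 in the old against the young library (-0.52 and 0.54, both within the limit) and hold the same short motif. The stretches are the bases before the RefSeq start of transcription that touch no annotated exon, read 5′ to 3′ on the gene's strand in build GRCm38.p6: chr6:82774455-82774704, minus strand, and chrX:106186850-106187099, plus strand. Capitals mark ACGTG, the core recognized by hypoxia-inducible factors, or its reverse complement CACGT.
Hk2: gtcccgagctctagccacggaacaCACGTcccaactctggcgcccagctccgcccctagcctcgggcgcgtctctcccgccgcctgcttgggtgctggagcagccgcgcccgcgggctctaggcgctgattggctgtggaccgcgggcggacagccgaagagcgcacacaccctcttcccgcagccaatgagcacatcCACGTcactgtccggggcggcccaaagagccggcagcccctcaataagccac
Pgk1: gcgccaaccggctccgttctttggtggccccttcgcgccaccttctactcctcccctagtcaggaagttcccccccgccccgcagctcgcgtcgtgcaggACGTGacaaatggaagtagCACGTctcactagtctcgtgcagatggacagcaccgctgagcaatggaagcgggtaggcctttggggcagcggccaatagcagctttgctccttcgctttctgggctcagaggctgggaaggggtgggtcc
Each stretch held the motif at 2 places. Of the 36 members, 34 had a RefSeq promoter window of 250 bases before and 50 bases after the start. Where a member had several windows, only the first listed was searched. Of these 34 windows, 12 (35.3%) held ACGTG on either strand. That compares with 19.6% of all 32851 windows in the table and 19.7% of 27025 genes with 1 window each. The 12 were *Slc2a1*, *Hk2*, *Hk3*, *Gapdh*, *Pgk1*, *Pgam1*, *Ldha*, *Pygl*, *G6pdx*, *Pdhb*, *Ogdh* and *Mdh1*, and they include genes that were higher past the limit (*G6pdx*), lower within the limit (*Hk2*) and nearly level (*Mdh1*, -0.022) in the old against the young library. *Slc2a3* and *Idh3a* had no window in the table.

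The genes of lactate dehydrogenase differed in opposite directions. *Ldha* (chr7:46841475-46855627, plus strand), the form of glycolytic tissues, was at 426 CPM in the young, 618 CPM in the control and 744 CPM in the old library. *Ldhb* (chr6:142490249-142507957, minus strand), the form of oxidative tissues, was at 79.0 CPM in the young, 57.2 CPM in the control and 42.5 CPM in the old library. The libraries ran in opposite order for the 2 genes, with the control between the others for both, and no intervals overlapped. The log2 ratio of old over young was 0.81 (0.79 to 0.82) for *Ldha* and -0.90 (-0.95 to -0.84) for *Ldhb*. The libraries of the same labelled age differed too, since control over young gave 0.54 (0.52 to 0.56) and -0.47 (-0.52 to -0.41), while old over control gave 0.27 (0.25 to 0.28) and -0.43 (-0.49 to -0.37), or 0.25 and -0.15 with the bands weighted equally. *Ldhb* made up 15.7% (15.3 to 16.0) of the UMIs of both genes in the young, 8.48% (8.27 to 8.70) in the control and 5.40% (5.26 to 5.55) in the old library.

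The upstream stretches of these genes are shown because *Ldha* was the 1 member whose searched promoter window held the E-box CACGTG. That motif is bound by MYC and related factors and was found in 7.15% of all windows, while *Ldhb* held neither motif. The stretches are chr7:46845554-46845803 on the plus strand and chr6:142507958-142508207 on the minus strand of GRCm38.p6. Capitals again mark ACGTG or its reverse complement, which every CACGTG contains. The *Ldha* stretch precedes the RefSeq start and lies between annotated exons of the longer GENCODE gene.
Ldha: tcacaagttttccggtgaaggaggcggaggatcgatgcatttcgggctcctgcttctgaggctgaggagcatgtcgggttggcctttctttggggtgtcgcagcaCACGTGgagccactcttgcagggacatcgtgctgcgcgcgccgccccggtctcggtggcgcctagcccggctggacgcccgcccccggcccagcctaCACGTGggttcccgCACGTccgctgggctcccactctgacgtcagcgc
Ldhb: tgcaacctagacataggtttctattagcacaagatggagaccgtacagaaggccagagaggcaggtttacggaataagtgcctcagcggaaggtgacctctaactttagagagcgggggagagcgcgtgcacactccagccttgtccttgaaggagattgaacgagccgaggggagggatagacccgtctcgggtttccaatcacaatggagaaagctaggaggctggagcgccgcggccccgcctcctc
The *Ldha* stretch held the core at 3 places, 2 of them as CACGTG. A further motif searched on both strands was the NRF1 half-site GCGCATGC. Among the members' searched windows only that of *Pgam1* held it, beside 2.71% of all windows. These matches describe the letters of the windows and nothing about binding.

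*Ldhc*, an isoenzyme known from testis and no member, lies next to *Ldha* at chr7:46861203-46878142 and was at 21.8, 36.2 and 9.49 CPM in the young, control and old libraries. Its log2 ratio was -1.20 of old over young and -1.93 of old over control, the opposite direction from *Ldha*, and control over young was 0.73. *Slc16a3*, which exports lactate from glycolytic cells, was at 51.3, 46.0 and 78.6 CPM, with 0.62 of old over young and 0.77 of old over control. The first was 0.47 with the bands weighted equally, under the limit.

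Of the glycogen genes, *Pygl*, which releases glucose phosphate from glycogen, was at 130.4 CPM in the young, 111 CPM in the control and 159 CPM in the old library, and *Gbe1*, which adds branches to it, at 53.9 CPM in the young, 47.8 CPM in the control and 36.6 CPM in the old library. The old library was high for *Pygl* and low for *Gbe1*, with log2 ratios of old over young of 0.28 (0.25 to 0.32) and -0.56 (-0.62 to -0.50) and of old over control of 0.52 (0.49 to 0.55) and -0.39 (-0.45 to -0.33). With the bands weighted equally *Pygl* was at 0.13 and 0.26. *Gyg*, the primer of glycogen synthesis, was at 145, 164 and 242 CPM, and *Gys1*, glycogen synthase, at 29.1, 22.0 and 18.6 CPM.

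In the pentose phosphate pathway *G6pdx* (chrX:74409483-74429194, minus strand), which encodes the glucose-6-phosphate dehydrogenase that opens the pathway and makes its first NADPH, was at 103 CPM in the young, 128 CPM in the control and 205 CPM in the old library. The old library was high and the young low, and no intervals overlapped. The log2 ratio was 0.9999 (0.96 to 1.04) of old over young, 0.68 (0.65 to 0.71) of old over control and 0.32 (0.27 to 0.36) of control over young, and with the bands weighted equally 0.90 and 0.56 for the old library, the second of which is just under the limit. *Rpia* (chr6:70765720-70792232, minus strand), which converts ribulose phosphate to ribose phosphate in the non-oxidative branch, went the other way, at 143 CPM in the young, 137 CPM in the control and 89.9 CPM in the old library. Here young and control lay close together, -0.060 (-0.10 to -0.022) apart, and the old library was low, at -0.67 (-0.71 to -0.63) and -0.61 (-0.65 to -0.58), or -0.54 and -0.42 with the bands weighted equally, which is under the limit. With UMI percentiles taken within each library, *Rpia* was also under the limit against the control.

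The other pentose phosphate genes stayed within the limit. *Pgls*, the lactonase of the oxidative branch, was at 311 CPM in the young, 243 CPM in the control and 242 CPM in the old library, where the young library was high and the others level. *Pgd*, which makes the second NADPH, was at 195 CPM in the young, 169.6 CPM in the control and 225 CPM in the old library, with the old library high. *Tkt* and *Taldo1*, which exchange carbon with glycolysis, were at 684, 589.6 and 649 CPM and at 886, 747 and 802 CPM in the young, control and old libraries, lowest in the control. *Ikbkg* overlaps *G6pdx* on the opposite strand. Counts of *Pgls* could include *Fam129c*, which overlaps it on the same strand. The X-linked members *G6pdx*, *Pgk1* and *Pdha1* were compared between libraries alike in sex-linked genes, with *Xist* at 0.0674 to 0.105 CPM and *Eif2s3y* at 28.8 to 35.7 CPM.

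Over whole libraries the pyruvate dehydrogenase subunits and all TCA genes but *Idh3a* stayed within the limit. The log2 ratio of old over young was -0.045 for *Pdha1* and -0.14 for *Pdhb*, and that of old over control -0.034 and -0.078. *Idh3a* (chr9:54586334-54604661, plus strand), a subunit of the NAD-dependent isocitrate dehydrogenase, was at 41.8 CPM in the young, 74.0 CPM in the control and 63.7 CPM in the old library. Here the young library was low and the control high, with log2 ratios of 0.82 (0.76 to 0.89) of control over young, 0.61 (0.55 to 0.67) of old over young and -0.22 (-0.26 to -0.17) of old over control. The young library was low against both others, though old over young did not pass the limit when CPM left out the 20 highest genes, and with the bands weighted equally old over control was 0.026. *Idh2*, the mitochondrial NADP-dependent form, was at 29.9 CPM in the young, 31.2 CPM in the control and 21.6 CPM in the old library, with -0.47 (-0.55 to -0.38) of old over young, but -0.016 with the bands weighted equally. Of old over control *Idh2* was at -0.53, or -0.21 with the bands weighted equally. *Idh1*, the cytosolic form, was at 36.3 CPM in the young, 29.4 CPM in the control and 43.2 CPM in the old library. Its log2 ratio was 0.25 of old over young and 0.55 of old over control. The second was 0.63 with the bands weighted equally, past the limit. For *Cs*, *Ogdh*, *Suclg1*, *Fh1*, *Mdh1* and *Mdh2* the log2 ratio of old over young ran from -0.22 (*Ogdh*) to 0.14 (*Mdh2*). Of old over control it ran from -0.20 (*Suclg1*) to 0.25 (*Mdh1*).

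Along the bands, from promyelocyte-like band 1 to late band 6, most members were lower in band 6. Of 35 members tested in the young library 3 were higher and 19 lower past the limit, of 35 in the control 3 and 19, and of 36 in the old library 6 and 16. This has to be read against all genes: 13.6% were higher and 60.0% lower in the young, 16.1% and 60.5% in the control and 14.2% and 63.3% in the old library, and the members' counts were near or below these shares. The median log2 ratio of all genes was -0.90, -0.96 and -1.07, that of glycolysis -0.46, -0.46 and -0.22 and that of the TCA cycle -1.58, -1.49 and -1.43. The median of glycolysis thus lay above that of all genes and the median of the TCA cycle below it in all 3 libraries, with single genes of both on either side. With CPM computed without the 20 highest genes the median of all genes became -0.026, 0.034 and -0.18. Of all genes past the limit, 18.4%, 21.0% and 18.3% were higher by plain CPM, and 49.4%, 50.9% and 43.9% without those genes. The members that passed the limit in all 3 libraries by both scalings, by ratios centred on the median gene and with cells weighted equally were *Slc2a3*, *Pygl* and *G6pdx* (higher) and *Ldhb*, *Rpia*, *Idh2*, *Idh3a*, *Suclg1* and *Fh1* (lower). The share of all genes that passed under all of these is not given here. By plain CPM alone 10.6% of all genes were higher and 55.8% lower past the limit in all 3 libraries. By UMIs per cell, of which late cells have fewer, *G6pdx* was under the limit in all 3 libraries, at 0.0056, 0.22 and 0.57, and *Pygl* in the young library, at 0.53, while *Slc2a3* was at 2.73, 2.89 and 2.53. The interferon-stimulated genes went with the bands as well, from 459 to 3355 CPM in the young, from 12.6 to 225 CPM in the control and from 18.7 to 117 CPM in the old library, and their part in the band results was not tested.

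**Figure D2:**
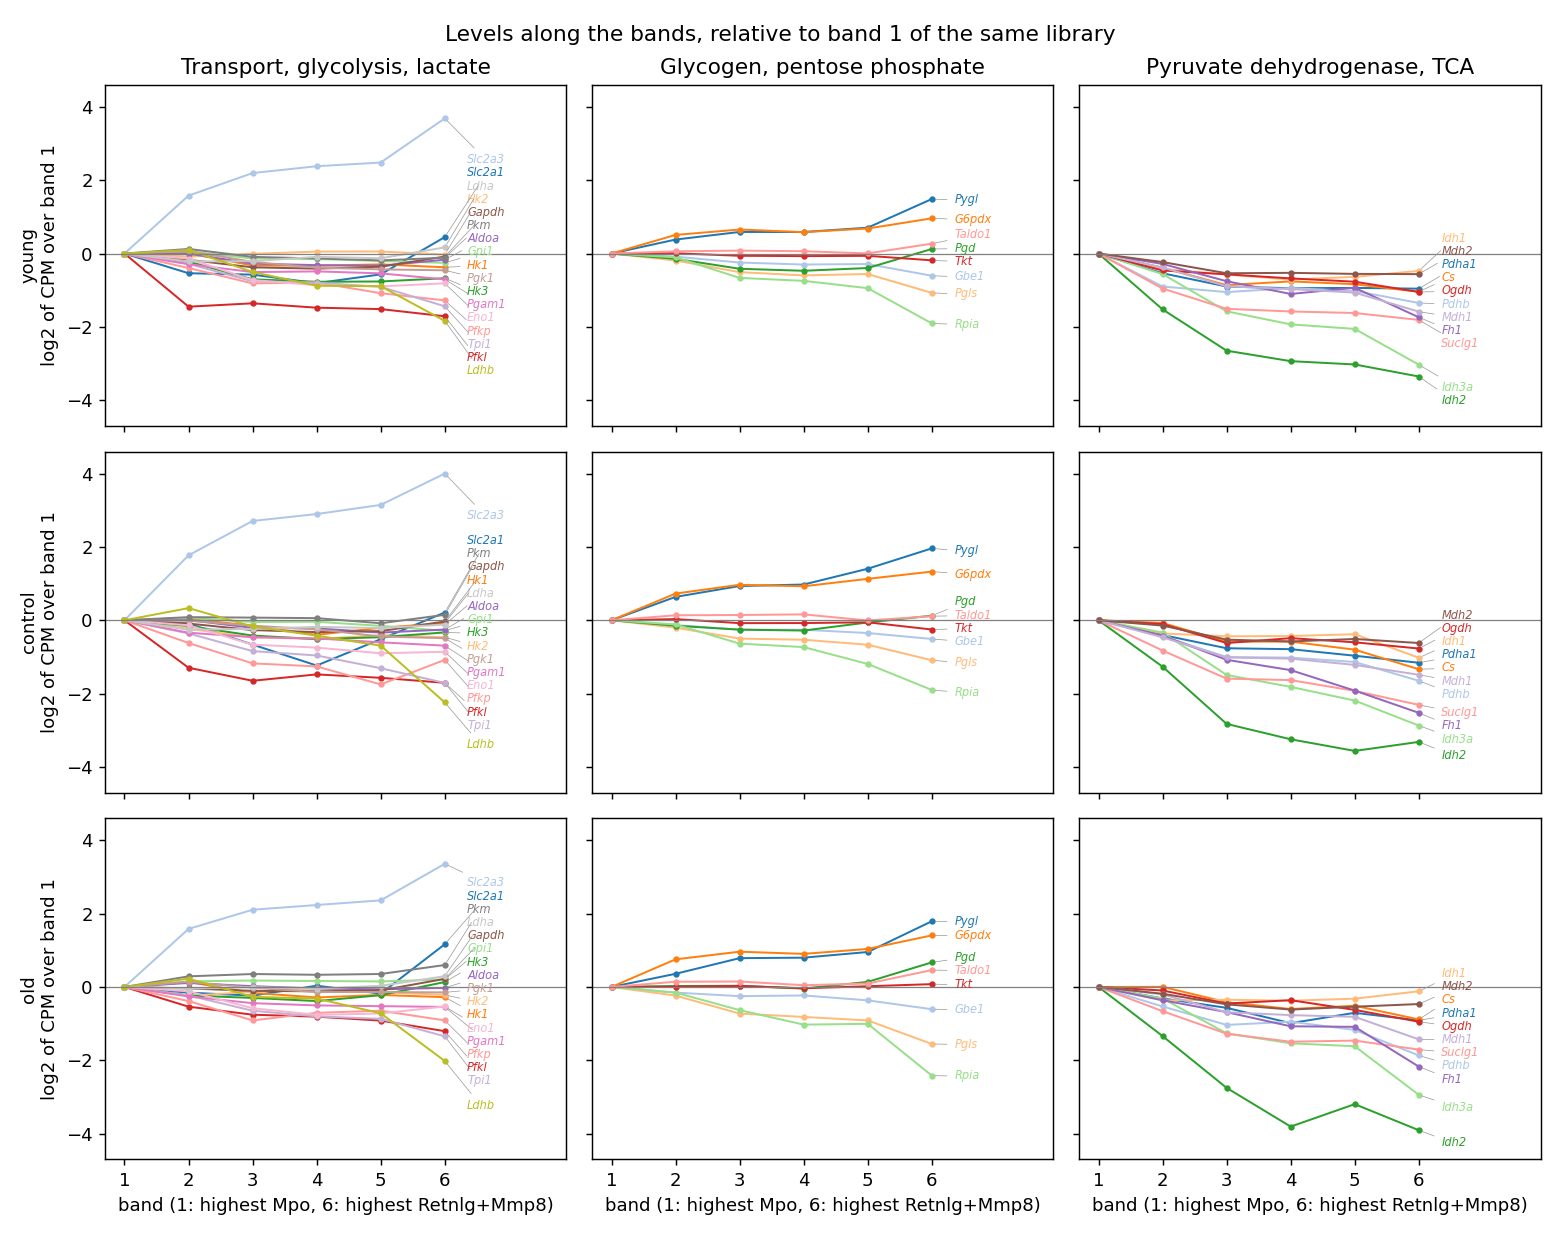
Log2 of CPM over band 1 of the same library (y axis) across the 6 bands (x axis), with a line for each member, roles in columns and libraries in rows. *Slc2a3* ends at 3.69, 4.002 and 3.36 and *Idh2* at -3.35, -3.32 and -3.91 in the young, control and old libraries, directions that hold under every scaling, while mild falls such as that of *Pgam1* turn to small rises when CPM leaves out the 20 highest genes in the young and control libraries.

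The glucose transporter *Slc2a3* had the steepest rise, from 7.56 to 97.5 CPM in the young, from 6.21 to 99.5 CPM in the control and from 13.6 to 139 CPM in the old library, and it was higher in every band than in the band before in all 3 libraries. *Slc2a1* stayed under 10 CPM except in band 6 of the old library, at 17.7 CPM, so that *Slc2a3* went from 64.0%, 51.1% and 63.2% of the UMIs of both transporters in band 1 of the young, control and old libraries to 94.4%, 93.5% and 88.7% in band 6. Among other carbon genes the lactate exporter *Slc16a3* also rose, from 35.9 to 99.4 CPM in the young, from 28.9 to 111 CPM in the control and from 48.9 to 137 CPM in the old library. Per UMI, band 6 held the most transcripts of *Slc2a3* and *Slc16a3* in each library.

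Within glycolysis, *Pfkl*, *Pfkp* and *Tpi1* fell most. *Pfkl* went from 25.3 to 7.73 CPM in the young, from 38.0 to 11.6 CPM in the control and from 33.8 to 14.6 CPM in the old library, and *Tpi1*, which interconverts the triose phosphates, from 297 to 109 CPM in the young, from 322 to 98.4 CPM in the control and from 337 to 132 CPM in the old library. Both were lower past the limit in all 3 libraries, as was *Pfkp* (-1.28, -1.08 and -0.91 on the log2 scale), but with ratios centred on the median gene none of the 3 passed it in all 3 libraries. *Eno1* and *Pgam1* had log2 ratios of -0.81 and -0.70 in the young library and of -0.53 and -0.54 in the old.

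*Aldoa*, *Gapdh*, *Pkm* and *Ldha* kept most of their share of UMIs or gained, while the median gene was lower in band 6. *Pkm* went from 1048 to 969 CPM in the young, from 932 to 1033 CPM in the control and from 1155 to 1749.7 CPM in the old library, and the old library was the 1 library in which it passed the limit, with a log2 ratio of 0.60 (0.57 to 0.63). *Gapdh* went from 985 to 930.5 CPM in the young, from 909 to 889 CPM in the control and from 1155 to 1346 CPM in the old library. *Ldha* went from 464 to 521 CPM in the young, from 705 to 648 CPM in the control and from 725 to 888 CPM in the old library, and *Aldoa* from 824 to 733 CPM in the young, from 847 to 710.2 CPM in the control and from 998 to 980.4 CPM in the old library. For these 4 genes band 6 lay within the limit of band 1 in the young and control libraries by plain CPM. Without the 20 highest genes all 4 were higher past the limit in all 3 libraries. Within the young, control and old library 2368, 2602 and 2143 of all genes were so. The share of all genes past it in all 3 libraries by that scaling is not given here. By UMIs per cell all 4 were lower in band 6 in all 3 libraries, from -0.24 (*Pkm*, old) to -1.37 (*Aldoa*, control). The median of all genes was then -1.85, -2.07 and -1.90 in the young, control and old libraries.

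*Ldhb* was highest in band 2 in every library and fell over the whole range, from 108 to 30.2 CPM in the young, from 62.6 to 13.2 CPM in the control and from 57.3 to 14.1 CPM in the old library. Its share of the UMIs of *Ldha* and *Ldhb* dropped from 18.9% (17.9 to 19.8) to 5.47% (4.35 to 6.78) in the young, from 8.15% (7.66 to 8.67) to 2.0% (1.30 to 2.94) in the control and from 7.32% (6.75 to 7.92) to 1.57% (1.35 to 1.80) in the old library. The young library had the highest share in every band. *Ldhc* was highest in band 6 in the young and control libraries, at 58.0 and 108 CPM, and stayed at 5.75 to 12.7 CPM in the old library.

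**Figure D3:**
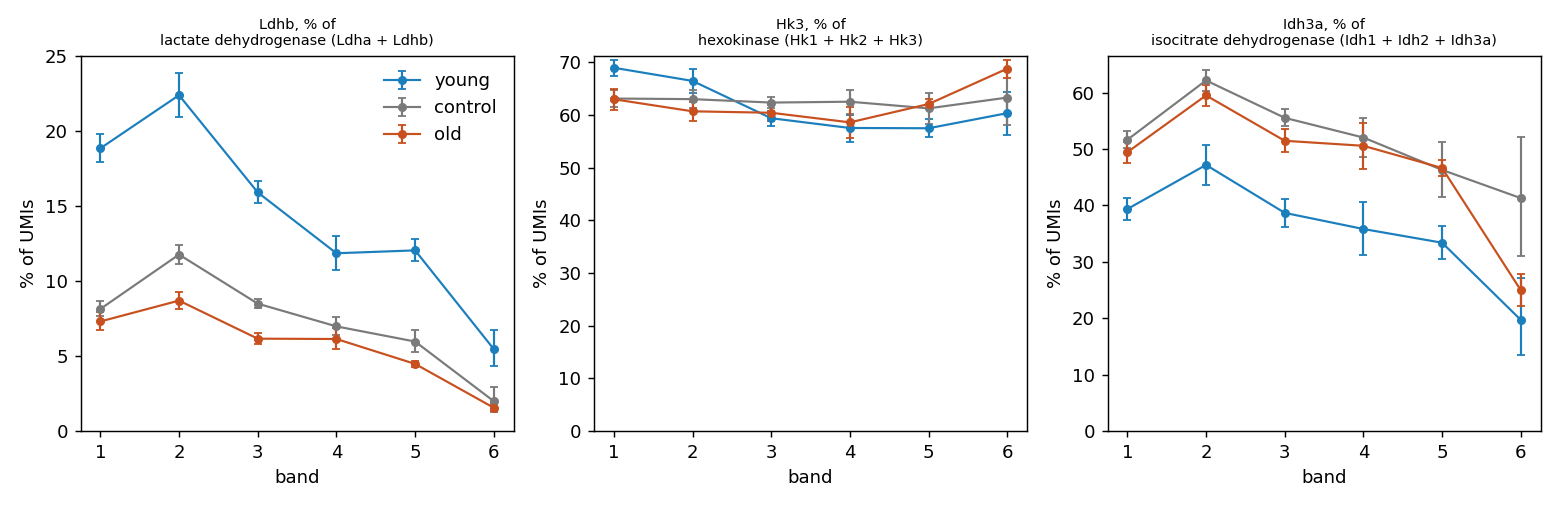
Share of the UMIs of an enzyme's members (y axis, %) given by *Ldhb*, *Hk3* and *Idh3a* across the 6 bands (x axis) in each library, with exact 95% binomial intervals for counting error. The members are *Ldha* and *Ldhb*, *Hk1* to *Hk3*, and *Idh1*, *Idh2* and *Idh3a*, without *Idh3b* and *Idh3g*. The *Ldhb* share falls to 5.47%, 2.0% and 1.57% in band 6 of the young, control and old libraries, whereas *Hk3* stays between 57.4% and 68.9% throughout.

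The forms of hexokinase kept their shares more than the isocitrate dehydrogenase members. *Hk3* gave between 57.4% and 68.9% of hexokinase UMIs in all bands and libraries. Of the UMIs of *Idh1*, *Idh2* and *Idh3a*, *Idh2* gave 38.7%, 35.2% and 31.9% in band 1 of the young, control and old libraries. In band 6 *Idh2* gave 15.5%, 20.7% and 8.26%, and *Idh1* gave 64.8%, 38.0% and 66.8%. Among these 3 genes *Idh1* had the largest share in band 6 of the young and old libraries. In the control library 38.0% (28.1 to 48.8) for *Idh1* overlapped 41.3% (31.1 to 52.1) for *Idh3a*. The shares leave out *Idh3b* and *Idh3g*, further subunits of the NAD-dependent enzyme. These were at 29.9, 29.4 and 25.8 CPM and at 52.9, 50.2 and 56.7 CPM over the whole libraries, so that the leading form was not determined. *Mdh2*, the mitochondrial malate dehydrogenase, went from 62.1%, 65.2% and 65.5% to 76.9%, 77.4% and 78.8% of malate dehydrogenase UMIs.

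Glycogen and pentose phosphate genes divided along the bands. *Pygl* (chr12:70190811-70231488, minus strand) went from 89.4 to 251 CPM in the young, from 61.2 to 238 CPM in the control and from 85.3 to 295 CPM in the old library, and *G6pdx* from 70.8 to 138 CPM in the young, from 71.9 to 180.5 CPM in the control and from 106 to 282 CPM in the old library. Both were lowest in band 1 and highest in band 6 in each library, and their log2 ratios of band 6 over band 1 were 1.49 (1.34 to 1.63), 1.96 (1.79 to 2.13) and 1.79 (1.68 to 1.90) for *Pygl* and 0.96 (0.78 to 1.14), 1.33 (1.15 to 1.504) and 1.41 (1.31 to 1.51) for *G6pdx*. *Pgd* was highest in band 6 as well, from 233 to 254 CPM in the young, from 192 to 209 CPM in the control and from 202 to 322 CPM in the old library. The oxidative branch was not uniform, as *Pgls*, which acts between these enzymes, fell by CPM, from 406 to 193 CPM in the young, from 318 to 149 CPM in the control and from 388 to 132 CPM in the old library.

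*Rpia* fell most in the pathway, from 206 to 54.9 CPM in the young, from 192 to 51.3 CPM in the control and from 149.8 to 28.0 CPM in the old library. *Tkt* was nearly flat, between 512 and 706 CPM over all bands and libraries, and *Taldo1* was highest in band 6 in the young and old libraries, at 1032 and 997 CPM. Per UMI, band 6 had more transcripts of the dehydrogenases *G6pdx* and *Pgd* and fewer of *Rpia* than band 1 in all 3 libraries, with *Pgd* within the limit in the young and control libraries.

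**Figure D4:**
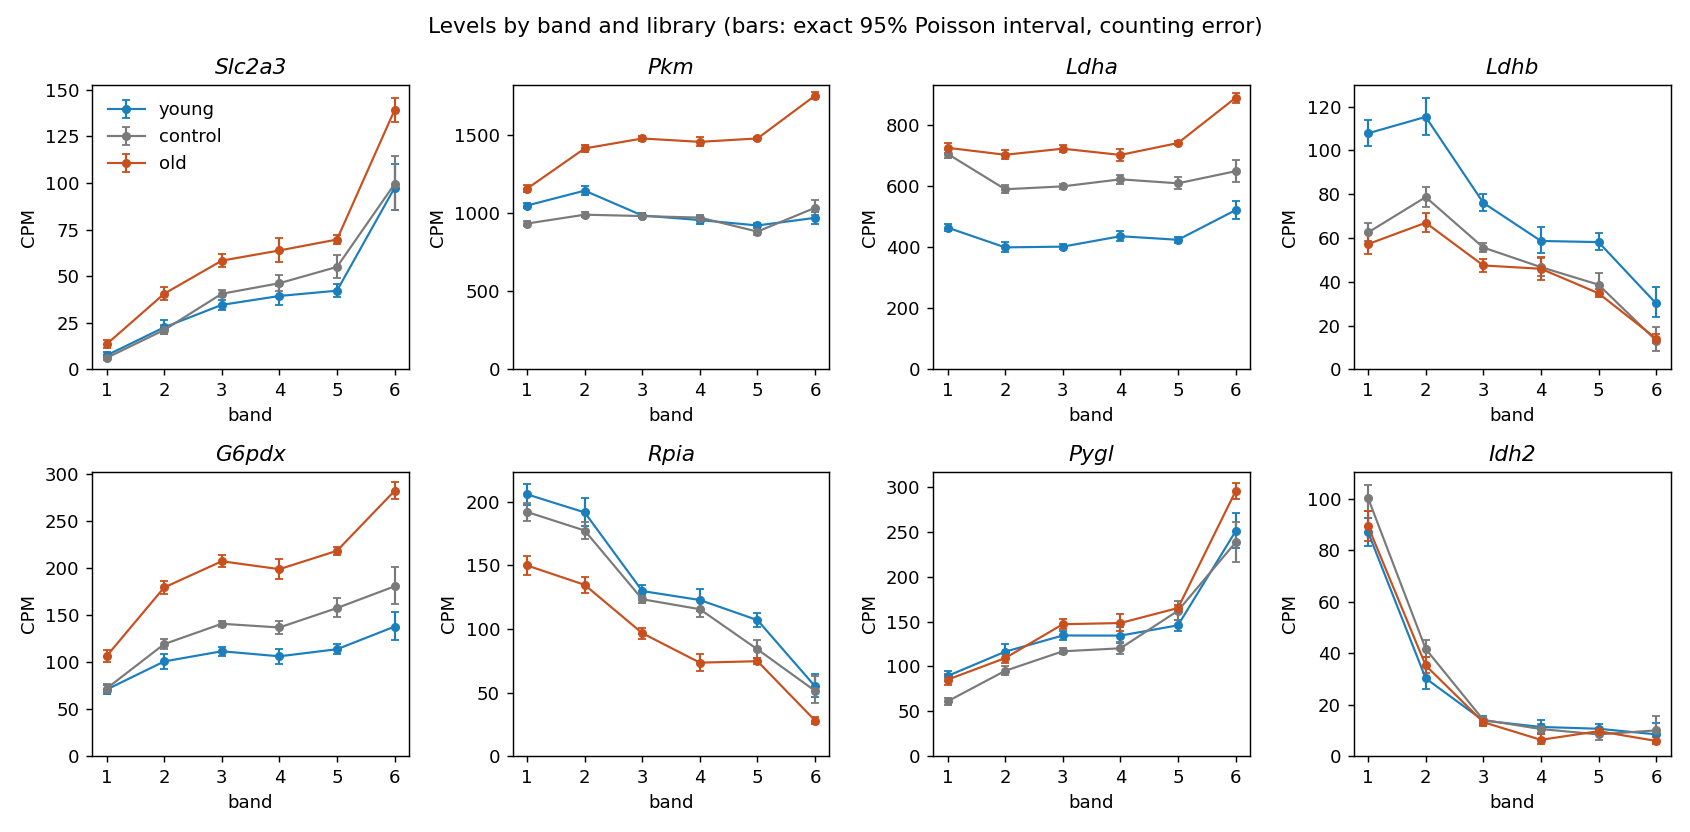
CPM (y axis, from 0) of 8 members across the 6 bands (x axis) in the young, control and old libraries, with exact 95% Poisson intervals for counting error. *Slc2a3*, *G6pdx* and *Pygl* are highest in band 6, *Idh2* falls from 89.3 to 13.2 CPM between bands 1 and 3 of the old library, and the old library lies above the others for *G6pdx* and *Pkm* and below them for *Rpia* in every band.

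By CPM the TCA genes were lower in band 6 as a group. All 9 were below their band 1 level in band 6 in all 3 libraries, 7 of them past the limit in all 3 (*Cs*, *Idh2*, *Idh3a*, *Ogdh*, *Suclg1*, *Fh1* and *Mdh1*). Of the 5846 genes tested in all 3 libraries, 71.6% were below band 1 and 55.8% lower past the limit in each, and 10.6% were higher past it. Of the TCA genes 8 were highest in band 1 in all 3, as were both pyruvate dehydrogenase subunits. Over all members 18 of 36 were highest in band 1 in all 3 libraries and 5 in band 6. Of 5979 genes that reached 10 CPM in some band of each library these were 54.7% and 12.9%, so that both counts are near the shares of all genes. Among the 5 was *Slc2a1*, which did not reach 10 CPM in the young and control libraries. With ratios centred on the median gene, some calls of TCA genes turned to the other side of 0. These were *Ogdh* in the control and old libraries, *Cs* in the old and *Mdh2* in the control library. Centred in this way, *Idh1* and *Mdh2* were also above 0 in the young library, at 0.42 and 0.33. In the old library they were then higher past the limit, at 0.95 and 0.60.

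*Idh2* (chr7:80094846-80115392, minus strand) fell most, from 87.0 to 8.51 CPM in the young, from 100.3 to 10.1 CPM in the control and from 89.3 to 5.95 CPM in the old library. Most of the fall lay between bands 1 and 3, where it reached 13.9, 14.1 and 13.2 CPM. *Idh3a* went from 88.6 to 10.8 CPM in the young, from 147 to 20.1 CPM in the control and from 138 to 18.0 CPM in the old library, *Suclg1*, a subunit of succinyl-CoA ligase, from 164 to 46.8 CPM in the young, from 194 to 39.2 CPM in the control and from 166 to 50.8 CPM in the old library, and *Fh1*, the fumarase, from 34.8 to 10.4 CPM in the young, from 39.6 to 6.88 CPM in the control and from 39.6 to 8.77 CPM in the old library. All 4 stayed past the limit under each of the scalings above. In band 6 *Idh2* was at 9.78%, 10.0% and 6.66% of its band 1 level. The promyelocyte gene *Elane* was lower, at 4.07%, 6.21% and 3.92%, as were *Prtn3* and *Ctsg* in each library. *Mpo* was lower too, but its limits define the bands, so that its fall was set in advance and gives no yardstick. The promyelocyte gene *Ms4a3* was higher than *Idh2* in each, at 10.1%, 13.4% and 8.33%. The part of free RNA in these remainders was not tested.

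*Mdh2* and *Idh1* differed least in the young and old libraries, with log2 ratios of -0.56, -0.62 and -0.47 and of -0.47, -1.02 and -0.12 in the young, control and old libraries. *Pdhb* went from 61.0 to 24.0 CPM in the young, from 58.2 to 18.5 CPM in the control and from 63.2 to 17.3 CPM in the old library, and *Pdha1* had log2 ratios of -0.96, -1.16 and -0.91. UMIs of mitochondrially encoded genes, counted outside the members, fell beside them from 2.77% to 0.702% of UMIs in the young, from 2.93% to 0.836% in the control and from 2.69% to 0.713% in the old library. The 10 cycling genes did not run in parallel: their sum went from 1325 CPM in band 1 through 2309.6 CPM in band 4 to 910.0 CPM in band 6 of the young library.

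Within bands, the libraries were compared among cells in the same range of *Mpo* and of *Retnlg* and *Mmp8*. Such cells were not alike in all else. The median in band 5 was 8659 UMIs per cell in the young, 6462 in the control and 12343 in the old library. In band 1 *Elane* was at 26019, 23958 and 19293 CPM in the same order. Differences of stage left within a band were not tested. Of the 35 members tested, the interval of old over young lay above 0 in all 6 bands for 12 (*Slc2a3*, *Pfkl*, *Aldoa*, *Tpi1*, *Gapdh*, *Pgk1*, *Pgam1*, *Eno1*, *Pkm*, *Ldha*, *G6pdx* and *Idh3a*) and below 0 for 5 (*Hk2*, *Ldhb*, *Gbe1*, *Pgls* and *Rpia*), beside 7.80% and 9.63% of all genes tested. For old over control these were 12 (*Slc2a3*, *Gpi1*, *Aldoa*, *Tpi1*, *Gapdh*, *Pgk1*, *Pgam1*, *Eno1*, *Pkm*, *G6pdx*, *Idh1* and *Mdh2*) and 2 (*Gbe1* and *Rpia*), beside 8.90% and 6.79% of all genes. For control over young they were 2 (*Ldha* and *Idh3a*) and 5 (*Gpi1*, *Ldhb*, *Pgls*, *Tkt* and *Taldo1*), beside 2.60% and 5.12%. An interval narrows with a gene's UMIs, so that abundant genes reach such a count with smaller differences. The glycolytic genes that were higher in the old library in every band against both references were *Aldoa*, *Tpi1*, *Gapdh*, *Pgk1*, *Pgam1*, *Eno1* and *Pkm*, and over whole libraries only *Pkm*, against the control, was past the limit. The share of all genes higher in every band against both references is not given here. For *Pkm*, the log2 ratio of old over young grew along the bands, from 0.14 in band 1 to 0.85 in band 6. With the bands weighted equally 5 members were higher past the limit in the old against the young library (*Slc2a3*, *Pfkl*, *Ldha*, *G6pdx* and *Idh3a*) and 1 was lower (*Ldhb*), beside 4.70% and 7.94% of all genes. Against the control library another set of 3 was higher, *Pgk1* (0.66), *Idh1* (0.63) and *Pkm* (0.59), and 0 were lower, beside 5.03% and 5.17%. In the control against the young library *Idh3a* was higher and *Ldhb* lower, beside 3.33% and 3.98%.

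A further 86 genes of carbon metabolism gave the surroundings of the members, of which 35 reached 10 CPM in the old or young library. In the old against the young library 3 were higher and 6 lower past the limit, beside 5.03% and 10.5% of all genes. Higher were *Slc16a3* (0.62), *Gyg* (0.74) and the phosphoglucomutase named *Pgm1* in these files (0.74). Lower were *Ldhc* (-1.20), *Pfkfb3*, which makes the activator of phosphofructokinase (-0.90), and the glucose-6-phosphatase *G6pc3* (-0.94). *Gys1* (-0.64) and the phosphorylase kinase subunits *Phkb* (-0.75) and *Phka2* (-0.72) were lower as well. Once the bands were weighted equally, *Slc16a3* (0.47), *G6pc3* (-0.41), *Phkb* (-0.56) and *Phka2* (-0.48) were under the limit. The other genes named here for old over young stayed past it. Of 34 tested against the control library, *Slc16a3* (0.77) and *Pgm1* (0.59) were higher and *Ldhc* (-1.93) was lower past the limit. Of all genes 5.36% were higher and 8.68% lower.

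From band 1 to band 6, 44 of these genes could be compared in the young, 43 in the control and 44 in the old library, and 29, 28 and 28 were lower past the limit while 4, 5 and 3 were higher. These counts lie near the shares of all genes, 60.0%, 60.5% and 63.3% lower and 13.6%, 16.1% and 14.2% higher. Among those lower in all 3 libraries were the TCA genes *Idh3b* (-1.45, -1.31 and -1.35 in the young, control and old libraries) and *Sdha* (-1.62, -1.07 and -1.15). Higher in all 3 were *Slc16a3* and *Pfkfb4*, a second enzyme of the phosphofructokinase activator, which went from 21.2 to 38.7 CPM in the young, from 15.8 to 33.3 CPM in the control and from 16.0 to 43.0 CPM in the old library.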

How the data were processed

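CD133+ cells of 3 libraries were counted by the authors with Cell Ranger 2.1.0, which uses STAR, on mm10, per the submitters' processing notes. The deposited matrices hold raw UMI counts per gene and cell, without normalization. Whether antisense reads were counted is not given in the sources used here.

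Cells with at least 200 genes, at most 20% mitochondrial UMIs and a UMI count between the 5th and 95th percentile were kept, limits given in the study's methods. Those methods name a recombined dataset. Taking the percentiles in the control alone and in young and old together was a choice made here. Cells with at least 3 genes and 10 UMIs per 10000 of 1 of 7 lists of other blood cells were set aside. No doublet caller was run, and an alternative left out the 10% of cells with most UMIs. Of the gene identifiers, 27645 were found in GENCODE M21, which gave positions. Promoter sequences are from RefSeq (GRCm38.p6). CPM intervals are Poisson, ratio intervals conditional binomial and shares Clopper-Pearson, and the ratio step was checked on simulated libraries. Named were all members, other carbon genes past the limit between old and young, and isoenzymes; other names were picked from the results. The members and lists were chosen with earlier results of these data known. A count of 0 allows up to 0.0442 CPM in the young library. 16 alternatives were computed. The work used matplotlib 3.10.9, pandas 2.3.3, scipy 1.17.1 and numpy 2.4.6 under Python 3.11.15.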

Additional observations from a re-analysis of the deposited data

Results flagged for a closer look

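For 6 members the log2 ratio of band 6 over band 1 had intervals on opposite sides of 0 in different libraries, and the difference between the libraries itself was not tested. The share of all genes with such intervals is not given here, and abundant genes reach them with smaller differences. *Hk3* was at 0.13 in the old, -0.67 in the young and -0.33 in the control library, and *Gpi1*, which isomerizes glucose phosphate, at 0.20, -0.25 and -0.29. *Tkt* was at 0.077 in the old, -0.18 in the young and -0.25 in the control library. By plain CPM the old library stood alone above 0 for these 3 genes. *Pkm* was at 0.60 in the old, -0.11 in the young and 0.15 in the control library. *Gapdh* was at 0.22 in the old and -0.082 in the young library. *Ldha* was at 0.29 in the old, -0.12 in the control and 0.17 in the young library. Centred on the median gene, all 6 genes were above 0 in all 3 libraries, and by UMIs per cell all were below 0. The 7 interferon-stimulated genes summed to 117 CPM in band 6 of the old library, against 3355 CPM in band 6 of the young library.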

How the results depend on the processing

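Each ratio was recomputed under up to 16 alternatives, all planned. The 7 members past the limit of old over young kept their direction in all 98 values, the 1 of control over young in all 14 and the 4 of old over control in all 56. Of 330 values for each library's band contrast, 7 reversed in the young, 7 in the control and 8 in the old library. All of these counts include alternatives that change only the limit or the minimum CPM. Those leave every ratio as it was, so their values could not reverse. Without replicates the spread between mice is unknown, and levels under 10 CPM rest on few UMIs. No paired analysis was possible because each group is 1 library. The causes of the changes were not tested, beyond what each alternative's construction shows.

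With UMIs per cell, members higher and lower were 9 and 1 of old over young, beside 670 and 245 of all 5606 genes tested. Of old over control they were 12 and 0, beside 981 and 111 of 5450 genes. The medians of old over young were 0.51 (glycolysis), 0.16 (pentose phosphate) and 0.25 (TCA). In band 6 over band 1 the members higher and lower were 1 and 32 in the young and 2 and 28 in the old library, with 32 lower in the control. Of all genes, 390 and 5458 of 6542 were higher and lower in the young and 460 and 5001 of 6183 in the old library, with 5339 of 6415 lower in the control. *Pkm* (-0.24) and *Pgd* (-0.16) reversed in the old library. Centred on the median gene, 1 member was lower in old over young, beside 442 of all genes, with medians of 0.33, -0.019 and 0.067. In old over control 6 members were higher and 0 lower, beside 380 and 329 of all genes. In the bands 12 members were then higher and 8 lower in the young, 13 and 9 in the control and 18 and 7 in the old library. Of all genes these were 2084 and 2014, 2200 and 2146, and 2125 and 2047. Reversed were *Eno1* (0.083), *Gbe1* (0.29), *Hk3* (0.22) and *Pgam1* (0.19) in the young, *Eno1* (0.10), *Mdh2* (0.34), *Ogdh* (0.19) and *Pgam1* (0.27) in the control and *Cs* (0.18), *Gbe1* (0.46), *Ogdh* (0.12), *Pdha1* (0.16) and *Pfkp* (0.16) in the old library. With CPM computed without the 20 highest genes, 12 members were higher and 9 lower in the bands of the young, 12 and 10 of the control and 15 and 9 of the old library. Of all genes these were 2368 and 2427, 2602 and 2505, and 2143 and 2735. The pentose phosphate median of old over young was -0.15. Reversed were *Gbe1* (0.18), *Hk3* (0.11) and *Pgam1* (0.083) in the young, *Mdh2* (0.23), *Ogdh* (0.081) and *Pgam1* (0.16) in the control and *Gbe1* (0.17) in the old library.

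Over all genes, the share of calls that were higher was 32.3% of old over young, and 73.2% with UMIs per cell and 45.0% after centring; of old over control it was 38.2%, 89.8% and 53.6%, and 28.1% without the 20 highest genes. Of control over young it was 37.0%, and 25.9% with UMIs per cell. With the bands weighted equally, 1 member (*Ldhb*) was lower in control over young, 0 in old over control and 1 in old over young, and the TCA median was 0.13. With cells weighted equally, 5 members were higher in old over control, beside 326 of all genes, and the medians were 0.27 (glycolysis) and -0.075 (pentose phosphate). A limit of a 25% difference gave 9 higher and 7 lower in old over young, 3 and 4 in control over young and 10 and 4 in old over control. Over all genes it gave 651 and 1462 of 5606, 469 and 670 of 5571 and 760 and 1308 of 5450. A limit of 2 times gave 1 and 0 members in old over young, 0 higher in control over young and 0 and 0 in old over control. Over all genes these were 119 and 169, 23, and 104 and 75. Halved band limits gave 3 members higher in the old library, beside 700 of all genes. A minimum of 50 CPM gave 10 lower there, beside 1592 of all genes. The numbers of members and genes tested with halved limits or that minimum are not given here. The TCA median of old over young was 0.060 with that minimum and 0.020 without trimming of UMI counts. It was 0.017 with percentiles of each library, where 0 members were lower in old over control, beside 438 of all genes. With other blood cells kept the TCA median was -0.089, and the pentose phosphate median was -0.073.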

Other observations

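The cells set aside from the young library, which the comparisons above leave out, gave levels of the same genes in other blood cells of the same pool. In 431 cells with monocyte markers *Idh1* was at 131 CPM, against 36.3 CPM in the young cells used, while *Slc2a3* was at 12.6 against 32.4 CPM and *Pygl* at 66.1 against 130.4 CPM. In 89 cells with B-cell markers *Pgls* was at 828 CPM against 311 CPM, *Mdh1* at 374 against 151 CPM and *Ldhb* at 14.8 against 79.0 CPM. In 76 cells with dendritic markers *Pgls* was at 674 CPM and *Ldhb* at 75.1 CPM. The part of *Fam129c*, which overlaps *Pgls* on the same strand, in these *Pgls* levels was not tested. In 68 cells with NK and T markers *Pfkp* was at 96.1 CPM, against 15.7 CPM. These genes were picked after their values were seen, and the set-aside cells come from 1 library.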
